A study of Mus musculus with 15 samples.

Results

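The genes described here are 10 markers of the 2 main types of mouse blood monocyte. Of these, 5 mark classical monocytes (Ccr2, F13a1, Fn1, Vcan and Thbs1) and 5 mark patrolling monocytes (Ace, Treml4, Spn, Nr4a1 and Cx3cr1). They were taken by name, each from the probe sets listed with that 1 gene symbol, among 22180 genes with such a probe set on the array. Each of the 10 had 1 probe set. They were chosen by their log2 signals over the 5 groups of this study, so their levels and differences are given as a description and without a test. Tests are given for other monocyte genes.

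The arrays measured RNA from C57Bl/6 mouse myeloid cells, in 5 groups of 3 arrays. Of the groups, 4 came from G-CSF-treated mice (G-CSF mobilises myeloid cells and progenitors out of the marrow) and were sorted from spleen as CD11b+CD34+ cells after removal of cells with CD4, CD8, Ly6G, B220 or Ter119. The RB and the GFW group are both wild type and carry the same labels apart from the code and prefix of their titles. The GFK group is labelled as coming from iNOS knockout mice, with no allele named. The GFE group holds wild-type cells kept for 3 days with Flt3 ligand and SCF, which are growth factors for progenitors. The MDSC group holds Ly6C+CD11b+ cells, called myeloid-derived suppressor cells in the labels, grown from C57Bl/6 bone marrow with the cytokine IL-13 beside G-CSF and GM-CSF. Mouse ages, the number of mice behind an array and any pooling were not given in the sources used here. No label says whether replicates came from different mice, so adjusted p-values measure only the spread between these arrays, which may be technical.

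Classical monocytes carry much Ly6C, leave the marrow through the chemokine receptor CCR2 and enter inflamed tissue, where they make matrix and clotting proteins. Patrolling monocytes carry little Ly6C, crawl along the inside of vessels, depend on the nuclear receptor NR4A1 and carry the fractalkine receptor CX3CR1. Patrolling monocytes arise largely from classical ones, so a population can hold both types and the cells between them. In spleen, both types also sit as a reserve in the red pulp.

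Promoter sequences were taken from RefSeq for mouse build GRCm38.p6, and 8 of the 10 genes had an entry, with 10 start sites in all. The 250 bases before a start site are printed 5′ to 3′ on the strand of the gene, for 4 genes whose patterns the results turn on. In the Nr4a1 sequence (chr15:101266596-101266845, plus strand) capitals mark TGCGTCA, the NAP element through which the gene is known to be switched on by signals. In the F13a1 (chr13:37050245-37050494, minus strand) and Ace (chr11:105967698-105967947, plus strand) sequences capitals mark GAGGAA or its complement TTCCTC, the core bound by the myeloid factor PU.1. The Cx3cr1 sequence (chr9:120068297-120068546, minus strand) held none of the motifs searched.
Nr4a1: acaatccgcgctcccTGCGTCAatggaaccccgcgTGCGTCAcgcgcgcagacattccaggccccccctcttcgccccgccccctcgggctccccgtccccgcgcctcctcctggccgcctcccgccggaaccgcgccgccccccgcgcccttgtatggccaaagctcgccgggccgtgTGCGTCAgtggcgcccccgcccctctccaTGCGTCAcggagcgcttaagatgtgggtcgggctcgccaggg
F13a1: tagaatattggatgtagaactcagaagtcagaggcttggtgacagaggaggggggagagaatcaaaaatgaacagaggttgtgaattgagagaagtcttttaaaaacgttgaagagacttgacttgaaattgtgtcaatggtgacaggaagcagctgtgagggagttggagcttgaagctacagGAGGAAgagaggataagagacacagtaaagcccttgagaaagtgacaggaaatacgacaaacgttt
Ace: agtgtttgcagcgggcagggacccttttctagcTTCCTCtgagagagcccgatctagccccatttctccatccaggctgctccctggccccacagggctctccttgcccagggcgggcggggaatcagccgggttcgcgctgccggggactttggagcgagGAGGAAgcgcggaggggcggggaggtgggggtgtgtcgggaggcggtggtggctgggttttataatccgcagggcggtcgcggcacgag
Cx3cr1: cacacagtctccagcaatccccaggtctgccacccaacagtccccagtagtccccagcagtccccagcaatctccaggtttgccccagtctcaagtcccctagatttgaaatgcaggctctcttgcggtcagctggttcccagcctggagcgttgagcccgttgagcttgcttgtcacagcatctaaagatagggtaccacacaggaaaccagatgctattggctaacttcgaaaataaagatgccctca

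TGCGTCA stood 4 times before the Nr4a1 start, first at -235 and last at -42 relative to it, and in 0 of the other 9 windows. It was found on either strand in 1.75% of the 32851 windows of the same length, and was added to the search after the sequence was read. GAGGAA occurred on either strand in the windows of F13a1 (1 of its 2 start sites), Ace (1 of 2) and Treml4, and in 23.3% of all windows. The other motifs searched, on both strands unless stated, were absent from the 10 windows. They were TGACGTCA (CRE, in 1.55% of all windows), AAAGGTCA (NBRE, the element bound by NR4A1, 1.34%), TGANTCA (AP-1, 6.75%), CACGTG (E-box, 6.02%) and TATAAA on the gene's strand (7.59%). These matches describe letters in these windows and nothing about binding.

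Values are log2 RMA signals, where 1 unit is a 2-fold difference, and array medians lay between 5.52 and 5.72. The 40th percentile of probe sets with 1 gene symbol, used as a mark of dim signal, lay between 5.34 and 5.58. All 10 genes passed the filter that they lie above it on at least 3 arrays, as did 14822 genes in all, but Fn1, Vcan and Thbs1 did so on 9 of the 15 arrays. Itgam, which encodes the sorted CD11b, stood at 11.38 ± 0.10 (SD, n = 3) on RB, 11.67 ± 0.05 on GFW, 11.72 ± 0.04 on GFK, 7.94 ± 0.11 on GFE and 10.32 ± 0.05 on MDSC arrays. Ly6g, whose protein the sort selected against, stood at 12.19 ± 0.03 on GFW and 12.08 ± 0.05 on GFK arrays, against 6.28 ± 0.10 on RB arrays. Cd34 was lowest on the RB arrays (5.92 ± 0.11) and highest on the GFE arrays (11.28 ± 0.03). Nos2, which encodes iNOS, was no lower on the arrays labelled knockout (8.89 ± 0.05) than on GFW arrays (8.28 ± 0.17), so GFK is called by its label only. In bulk RNA, fewer cells of a type and less RNA per cell cannot be told apart.

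Ccr2, the receptor that brings classical monocytes out of the marrow, read 11.31, 11.30 and 11.35 on the RB arrays. It read 9.12, 8.85 and 9.06 on MDSC, 8.01, 8.14 and 8.40 on GFW, and 7.62, 7.19 and 7.67 on GFK arrays. On GFE arrays it was 6.10, 5.45 and 6.09. The 5 groups thus stood in the order RB, MDSC, GFW, GFK, GFE, and no neighbours in that order overlapped. Ccr2 was the 1 classical gene with a graded level over the groups.

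F13a1, the A subunit of the clot-linking factor XIII, read 11.94, 11.81 and 11.68 on the RB arrays. It lay between 5.17 and 6.30 on every other array, with 6.30, 5.50 and 5.45 on GFW and 5.85, 6.14 and 5.98 on GFK. MDSC arrays read 5.94, 5.74 and 5.77 and cultured cells 5.17, 5.26 and 5.23. F13a1 was thus high on the RB arrays alone, and the order of GFK, MDSC and GFW was not separated.

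Fn1, which encodes the matrix protein fibronectin, behaved alike with 12.28, 12.25 and 12.21 on RB arrays. It read 5.42, 5.52 and 5.53 on GFW and 5.24, 5.34 and 5.30 on GFK arrays, where it ranked at percentiles 38.7 and 34.4 of the probe sets. On MDSC arrays it read 5.47, 5.70 and 6.02. Cultured cells were somewhat above these, at 6.51, 6.22 and 6.28, and did not overlap with MDSC or GFW arrays.

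Thbs1, which encodes thrombospondin 1, a matrix protein that binds CD36 and CD47, read 11.69, 11.22 and 10.99 on RB arrays. It was 5.47, 5.28 and 5.74 on GFW, 5.88, 5.31 and 5.53 on GFK, 5.64, 5.54 and 6.03 on MDSC and 5.06, 4.83 and 5.16 on GFE arrays. MDSC, GFK and GFW overlapped in that order, all near the dim level, and no other group approached RB.

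Vcan, which encodes the hyaluronan-binding proteoglycan versican, departed from this pattern. It read 10.62, 10.29 and 8.89 on RB arrays and 9.52, 9.71 and 9.64 on MDSC arrays, so these 2 groups overlapped. It was dim on GFW (5.31, 5.78 and 5.16) and GFE arrays (4.70, 4.71 and 4.90), and read 5.94, 5.39 and 6.17 on GFK arrays. Its spread on the RB arrays (SD 0.92) was the widest of the 10 genes in any group, with replicate 3 apart from the other two.

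Among the patrolling genes, Nr4a1, the nuclear receptor that patrolling monocytes need, read 12.28, 12.25 and 12.34 on RB arrays. It read 11.21, 11.16 and 11.32 on GFK and 10.50, 10.64 and 10.56 on GFW arrays. It was low in both cultures, with 7.76, 7.57 and 7.52 on GFE and 7.04, 6.89 and 6.73 on MDSC arrays. No neighbouring groups overlapped, and the 3 groups taken straight from spleen stood above the 2 cultured ones.

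Treml4, a receptor of the TREM family found on patrolling monocytes and splenic phagocytes, was also split between spleen and culture. It read 11.11, 11.22 and 11.22 on GFK, 10.63, 11.00 and 10.40 on RB and 10.43, 10.43 and 10.48 on GFW arrays. It read 6.88, 6.66 and 6.80 on MDSC and 6.37, 6.23 and 6.78 on GFE arrays. It was the 1 member highest on GFK arrays, and RB and GFW overlapped.

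Ace, which encodes angiotensin-converting enzyme, a peptidase of the cell surface, read 10.50, 10.84 and 10.88 on RB arrays. It read 6.84, 6.96 and 6.92 on GFK and 5.94, 5.91 and 6.24 on GFW arrays. It lay at 5.65, 5.57 and 6.17 on MDSC and 5.34, 5.41 and 5.32 on GFE arrays, where it was near the dim level. In being high on RB arrays alone Ace resembled F13a1 more than Treml4, with a Pearson r over the 15 arrays of 0.98 and 0.57.

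Spn, which encodes the sialomucin CD43, and Cx3cr1 were the 2 members that stood high on the GFE arrays. Spn read 10.01, 10.13 and 10.12 on GFE and 9.72, 9.91 and 10.17 on RB arrays, which overlapped, then 9.39, 9.35 and 9.30 on MDSC arrays. It read 8.86, 8.70 and 8.81 on GFK and was lowest on GFW arrays, at 8.27, 7.98 and 8.01. CD43 is also carried by progenitors, granulocytes and T cells, so its level is not one of monocytes alone.

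Cx3cr1 read 10.42, 10.48 and 10.91 on RB and 9.72, 9.57 and 9.70 on GFE arrays. It read 7.88, 7.57 and 8.19 on GFK and 7.77, 7.97 and 7.58 on GFW arrays, which overlapped. It was lowest on MDSC arrays, at 7.06, 6.94 and 6.41. Early monocyte and dendritic progenitors carry CX3CR1 as well.

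**Figure D1:**
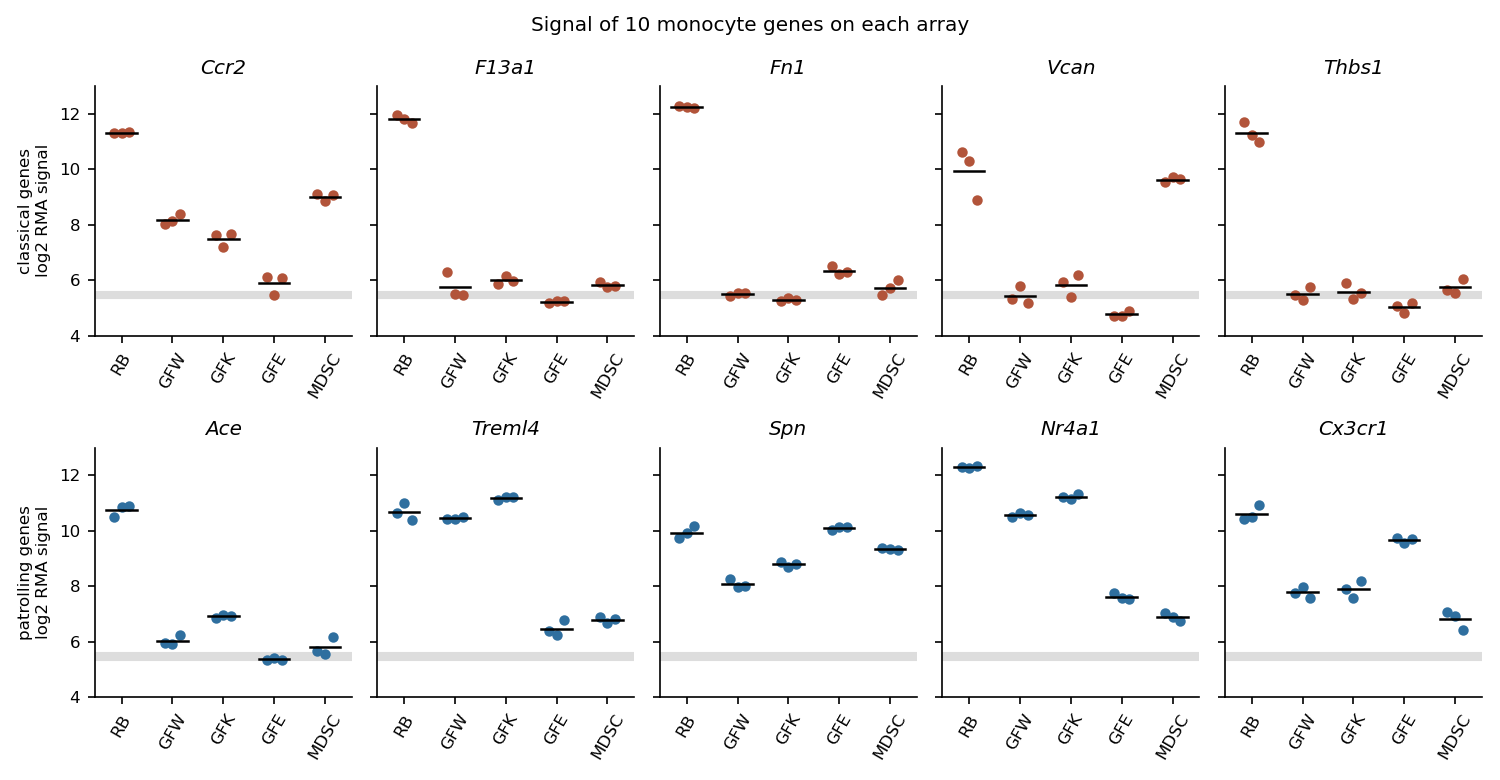
Log2 RMA signal (y axis) of the 10 genes on each of the 15 arrays, with a point per array, a line at the group mean (n = 3) and a grey band over the arrays' 40th percentiles (5.34 to 5.58). The RB arrays read 11.68 or more for F13a1, and no other array read above 6.30. Treml4 and Nr4a1 divide the spleen groups from the 2 cultured ones.

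The classical and patrolling sets were not opposed over the groups. Over the 15 arrays the Pearson r between pairs of classical genes ran from 0.61 to 0.99 (median 0.85, 10 pairs). Between pairs of patrolling genes it ran from -0.51 (Treml4 and Spn) to 0.95 (Treml4 and Nr4a1), with a median of 0.50. Between the sets the 25 pairs had a median of 0.50 too, with Ace and F13a1 highest. These values describe 5 groups of arrays normalised together and carry no test.

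The RB arrays were compared with the GFW arrays because both hold wild-type mobilised cells. The classical genes were higher on RB arrays by a median of 5.80 log2, with Ccr2 8.77-fold, F13a1 66.7-fold, and Fn1 at least 104-fold, Thbs1 at least 51.6-fold and Vcan at least 19.9-fold higher. A fold is given as "at least" where the dimmer group's mean ranked below the 40th percentile, which then stands in for it. The patrolling genes were higher by a median of 1.85: Ace 26.1-fold, Cx3cr1 7.13-fold, Spn 3.6-fold and Nr4a1 3.30-fold, while Treml4 overlapped (0.23 log2, SE 0.15). All 5 classical and 4 of 5 patrolling genes had every RB array above every GFW array, as 26.4% of all genes tested did (28.8% had every one below), and the members were chosen with this difference known. The median of all genes tested was -0.06, and -0.20 with each array set to its median, which moved the calls over all genes from 49.4% to 35.5% higher. Without RB replicate 3, Vcan was 5.04 log2 higher instead of 4.52.

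Other classical genes did not all follow. Of 11 classical companions tested, a list of further genes of Ly6C-high monocytes, 7 rose and 3 fell in RB (median 0.54), where 25.8% of genes tested rose and 26.5% fell (52.4% in all). Ms4a4c, of the MS4A membrane family, rose by 4.33 log2 (SE 0.26, limma adjusted p = 2.26e-09), the chitinase-like Chil3 by 2.26 (adjusted p = 1.87e-06) and the surface antigen Ly6c2 by 1.24 (adjusted p = 2.49e-05). The chemokine receptor Ccr1 (-2.57, adjusted p = 1.73e-08), the collagenase Mmp8 (-2.07, adjusted p = 9.44e-07) and haptoglobin Hp (-0.70, adjusted p = 3.6e-05) fell. These 3 are also neutrophil genes, and the part of neutrophils in the rises and falls of the companions was not tested. Against a 1.5-fold difference, 4 classical companions rose and 2 fell, with Hp not passing (adjusted p = 0.677).

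Of 14 patrolling companions, 7 rose and 4 fell in RB (median 0.30), where 25.8% of genes tested rose and 26.5% fell. The fatty acid binding protein Fabp4 was dim on GFW arrays and rose at least 4.53-fold (adjusted p = 4.58e-09). Adgre4, an adhesion receptor of resident monocytes, rose by 3.4 (adjusted p = 2.79e-10) and the transcription factor Pou2f2 by 1.76 (adjusted p = 9.64e-08). The peptidoglycan receptor Pglyrp1, a granule protein of neutrophils, fell by 2.12 (adjusted p = 7.23e-09), the integrin gene Itgax fell by 2.1 (adjusted p = 7.63e-10) and the tetraspanin gene Cd9 fell by 1.69 (adjusted p = 2.19e-07).

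Among 10 monocyte regulators, 6 rose and 2 fell in RB (median 1.14). The NR4A relatives Nr4a2 (3.28, adjusted p = 8.13e-11) and Nr4a3 (2.01, adjusted p = 7.85e-09) rose, as did Klf4 (2.37, adjusted p = 5.31e-09), a factor of monocyte differentiation. Klf2 fell by 1.45 (adjusted p = 4.04e-07) and the PU.1 gene Spi1 by 0.68 (adjusted p = 2.48e-05, and 0.747 against a 1.5-fold difference). Of 16 ligands and partners of the members' proteins, 6 rose and 3 fell, a share called near the 52.4% of all genes tested. The sialic acid receptor Siglec1, which binds CD43, rose by 2.68 (adjusted p = 1.68e-08), and the integrin chains Itgav, of fibronectin receptors, by 1.44 (adjusted p = 8.58e-08) and Itga4 by 0.70 (adjusted p = 3.54e-05, and 0.631 against 1.5-fold). The CCR2 ligand Ccl2 fell by 1.71 (adjusted p = 1.94e-05) and the selectin ligand Selplg by 1.15 (adjusted p = 8.36e-08). The CX3CR1 ligand Cx3cl1, near the dim level on RB arrays (5.46, against 5.96 on GFW arrays), fell by 0.51 (adjusted p = 0.00936). That call was lost without GFW replicate 2 (0.0558) and against 1.5-fold.

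Markers of other cells were counted in this comparison too, where 25.8% of genes tested rose and 26.5% fell (52.4% in all). Of the neutrophil markers, 1 of 8 was higher and 6 were lower in RB. The higher one was Camp (8.78 on RB and 6.36 on GFW arrays), and Ltf was not called (8.33 and 8.4). The summed linear signal of the 8 neutrophil markers was 6119 to 6252 on RB and 29394 to 30888 on GFW arrays. The summed signal of 7 progenitor and primary granule genes was 786 to 1015 on RB and 3502 to 4077 on GFW arrays (0 higher and 3 lower, or 0 and 4 unadjusted and 0 and 3 with limma's trend and robust fit). Kit, the SCF receptor gene, fell by 5.92 log2 and made up most of that sum on GFW arrays. The primary granule genes Mpo, Elane, Prtn3 and Ctsg stood at 7.29, 7.23, 7.51 and 7.0 on RB arrays. On GFW arrays they stood at 7.85, 6.88, 7.3 and 7.31. Macrophage markers summed to 2922 to 3518 on RB and 2221 to 2491 on GFW arrays (3 of 8 higher and 3 lower). B and plasma cell markers summed to 322 to 404 and 717 to 969 (0 of 5 higher and 4 lower, the same unadjusted and with the trend and robust fit). The part of these shifts in the members' differences was not tested. F13a1 and Thbs1 are also platelet genes, and the 5 platelet markers measured summed to 279 to 339 on RB and 374 to 481 on GFW arrays (0 higher, 2 lower by limma, and the same with a trend and robust fit). Dendritic cell markers summed to between 391 and 936, and T and NK cell markers to between 290 and 688, over all arrays. The part of platelets in the F13a1 and Thbs1 differences was not tested. The title prefix separates RB, MDSC and the other arrays as the code does, and no label says what it stands for. Prefix and cells therefore cannot be told apart in any comparison with RB or MDSC arrays.

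**Figure D2:**
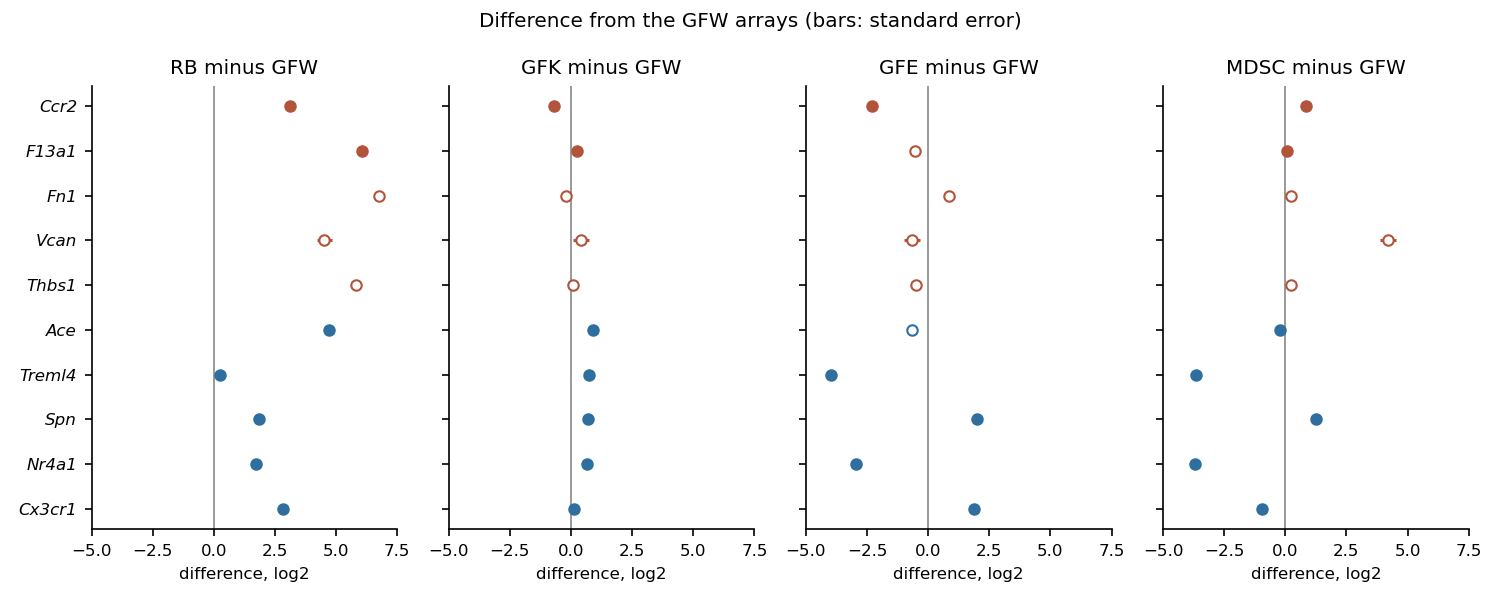
Difference in mean log2 signal from the GFW arrays (x axis) for the 10 genes in 4 comparisons, with limma's standard error as a bar. Classical genes are brown and patrolling genes blue, and open points have 1 or both means under the 40th percentile. The 4 panels share the GFW arrays. All 10 points lie above 0 for RB, the patrolling points lie between 0.11 and 0.88 for GFK, and both sets split in sign for GFE.

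The arrays labelled iNOS knockout were set against GFW arrays of the same title prefix. The patrolling genes were higher on them by a median of 0.71 log2: Ace 1.84-fold, Treml4 1.67-fold, Spn 1.63-fold and Nr4a1 1.58-fold. Cx3cr1 overlapped (0.11, SE 0.19). The classical genes had a median of 0.08, which turned to -0.08 without GFK replicate 1 and -0.03 without GFW replicate 2. Ccr2 was lower on the arrays labelled knockout, with a difference of -0.69 (SE 0.17), and F13a1, Vcan and Thbs1 overlapped. Every GFK array lay above every GFW array for 4 patrolling and 0 classical genes, against 8.26% of all genes tested, and below for Ccr2 and Fn1, against 7.91%. The members were chosen with these differences known, and Fn1 was dim in both groups.

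Few other monocyte genes passed the test on the arrays labelled knockout, where 1.3% of genes tested rose and 0.317% fell (1.61% in all). Of the patrolling companions 4 of 14 rose and 0 fell (at an unadjusted p under 0.05, 7 and 0, and 4 and 0 with limma's trend and robust fit). Fabp4 rose at least 4.39-fold from the dim level (adjusted p = 7.02e-07). Cd274, which encodes PD-L1 and is used to mark patrolling monocytes, rose by 1.52 log2 (adjusted p = 2.45e-04) and Adgre4 by 1.10 (adjusted p = 0.00259). A fit to the 6 GFK and GFW arrays alone left 2 of the 4 calls, with Adgre4 at an adjusted p of 0.0754. The fourth, Cd9 (0.74, adjusted p = 0.0201), was lost when any of GFK replicates 1 or 3 or GFW replicates 1 or 2 was left out (up to 0.0899). Cd9 was chosen for naming after its values were seen.

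Of the classical companions 1 of 11 rose, the clotting protease F10 (0.63, SE 0.11, adjusted p = 0.00644, and 0.058 in the fit to 6 arrays), and 0 fell (unadjusted, 2 and 0). Ly6c2 differed by -0.17. No monocyte regulator of 10 passed limma's test (unadjusted, 2 higher and 2 lower, and 0 with the trend and robust fit), with Nr4a2 at 0.18 and Csf1r, the receptor that monocytes live on, at 0.21. Among ligands and partners 2 of 16 rose and 0 fell (unadjusted, 4 and 0). The transglutaminase Tgm2 rose by 1.21 (adjusted p = 1.21e-04, and 0.0844 against 1.5-fold), and the integrin chain Itgb1 by 0.40 (adjusted p = 0.0479). The Itgb1 call was lost without any GFK replicate or GFW replicates 1 or 2 (up to 0.145), in the fit to 6 arrays (0.24), with the replicate block, with array medians, with no filter and against 1.5-fold.

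Macrophage and B cell markers moved with the patrolling genes. Of 8 macrophage genes 3 rose (Cd5l 1.66, Marco 1.45 and C1qb 0.84), where 1.3% of all genes tested rose. The summed signal of the macrophage genes was 2965 to 3937 on GFK and 2221 to 2491 on GFW arrays. Of 5 B and plasma cell genes 2 rose (Cd79a 1.58 and Jchain 1.12), with sums of 1330 to 1514 and 717 to 969. The neutrophil sums were 28287 to 29710 and 29394 to 30888, with 0 of 8 called (0 also at an unadjusted p under 0.05 and with the trend and robust fit). The part of macrophages and B cells in the patrolling difference was not tested.

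The cells cultured with SCF and Flt3 ligand were compared with GFW arrays, and the members of both sets split in sign. Relative to GFW arrays, Spn was 4.01-fold and Cx3cr1 3.72-fold higher. Treml4 was 15.9-fold, Nr4a1 7.74-fold and Ccr2 4.93-fold lower on GFE arrays, and Ace was at least 1.55-fold and F13a1 at least 1.29-fold lower. Fn1 was at least 1.73-fold higher, and Vcan and Thbs1 were dim in both groups. Against RB arrays, the other uncultured wild-type set, the rises of Spn, Cx3cr1 and Fn1 were not seen. Cx3cr1 stood at 9.66 on GFE and 10.6 on RB arrays, Fn1 at 6.34 and 12.24, and Spn overlapped (10.09 and 9.93). Of the 10 genes, 3 (Fn1, Spn and Cx3cr1) had every GFE array above every GFW array and the other 7 below, where 37.1% of genes tested did the one and 37.1% the other. Median scaling of the arrays moved the median of all genes from -0.06 to -0.38, and relative to it the medians of -0.53 (classical) and -0.67 (patrolling) became -0.85 and -0.99. That scaling shifted the calls over all genes from 52.3% to 33.6% higher.

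Other monocyte genes mostly fell on GFE against GFW arrays, where 31.9% of genes tested fell and 35.1% rose (67.0% in all). Of the classical companions 10 of 11 fell and 1 rose (median -3.29). Hp fell by 7.06 (SE 0.10, adjusted p = 9.59e-17), Mmp8 by 6.34 (adjusted p = 7.74e-13) and Ccr1 at least 40.4-fold to a dim level (adjusted p = 2.72e-13), and Ms4a4c rose by 1.52 (adjusted p = 9.29e-05). Of the patrolling companions 8 of 14 fell and 2 rose (median -0.62), a share called near the 67.0% of all genes tested. Pglyrp1 fell by 5.42 (adjusted p = 4.14e-14), the adhesion protein Ceacam1 by 3.71 (adjusted p = 1.14e-12) and Itgax fell by 3.6 (adjusted p = 3.97e-13). Hp, Mmp8, Ccr1 and Pglyrp1 are also neutrophil genes, and the part of neutrophils in their falls was not tested. The scavenger receptor Cd36 rose by 2.23 (adjusted p = 2.01e-07) and Pou2f2 by 1.38 (adjusted p = 5.95e-07). Against RB arrays the rise of Ms4a4c was not seen (7.99 on GFE and 10.79 on RB arrays), and Pou2f2 overlapped (8.19 and 8.57). Cd36 was higher on GFE than on RB arrays as well (7.79 and 7.09), with no overlap.

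Of the monocyte regulators 8 of 10 fell and 1 rose on GFE against GFW arrays (median -1.76). Over all genes tested 31.9% fell and 35.1% rose. Klf2 fell by 4.80 (adjusted p = 1.42e-13), Notch2, the receptor that drives the patrolling fate, fell by 2.06 (adjusted p = 2.34e-10) and Cebpb, a factor patrolling monocytes need, fell by 1.97 (adjusted p = 6.23e-10). Nr4a3 rose by 0.33 (adjusted p = 0.0421), a call lost without any GFE replicate or GFW replicates 1 or 2 (up to 0.143), with array medians, with no filter, with the trend and robust fit and against 1.5-fold. Of the ligands and partners 7 of 16 fell and 3 rose. Ccl2 fell by 5.06 (adjusted p = 3.19e-11), Selplg fell by 2.27 (adjusted p = 9.88e-12) and the hyaluronan receptor gene Cd44 fell by 1.82 (adjusted p = 5.56e-09). The integrin chain Itgb3 rose by 0.86 (adjusted p = 1.35e-04, and 0.149 against 1.5-fold). The rises of the sheddase Adam10 (0.25, adjusted p = 0.0324) and of Cd47 (0.23, adjusted p = 0.0417) turned to -0.07 and -0.09 with array medians. The Adam10 call was lost without GFE replicates 2 or 3 or GFW replicate 1 (up to 0.106), and that of Cd47 without any 1 of the 6 arrays (up to 0.1).

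The neutrophil markers all fell in culture (8 of 8), where 31.9% of genes tested fell and 35.1% rose. Their summed signals were 427 to 487 on GFE arrays. Progenitor and primary granule genes summed to 6024 to 6458 (3 of 7 rose and 3 fell). Macrophage genes summed to 1326 to 1428 (2 of 8 rose and 6 fell). The part of these shifts in the members' differences was not tested.

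The MDSC arrays were compared with each wild-type mobilised set. Against RB arrays, Fn1 was 91.4-fold, F13a1 63.7-fold, Thbs1 47.1-fold and Ccr2 4.94-fold lower. Among the patrolling genes Nr4a1 was 42.3-fold, Ace 30.7-fold, Treml4 14.9-fold, Cx3cr1 13.9-fold and Spn 1.5-fold lower. Vcan overlapped (-0.31, SE 0.32), at -0.83 without RB replicate 3 and 0.03 without RB replicate 1. Every MDSC array lay below every RB array for 9 of the 10 genes, as for 24.1% of genes tested (31.3% had every one above).

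Against GFW arrays, Vcan was at least 16.0-fold, Spn 2.40-fold and Ccr2 1.77-fold higher on MDSC arrays. Nr4a1 was 12.8-fold, Treml4 12.7-fold and Cx3cr1 1.96-fold lower. F13a1, Fn1, Thbs1 and Ace overlapped. Every array was higher for 3 of the 10 genes (34.4% of genes tested) and lower for 3 (36.3%). The classical median of 0.24 became -0.02 when each array was set to its median, which moved the median of all genes from -0.08 to -0.34. That scaling moved the calls over all genes from 51.8% to 33.5% higher, and against RB arrays from 56.9% to 45.2% higher.

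Other classical genes were compared between MDSC and RB arrays too. Of 11 classical companions 6 fell and 0 rose (unadjusted, 6 and 1, and the same 6 and 0 counted with the trend and robust fit), where 20.7% of genes tested fell and 27.4% rose (48.1% in all). Ms4a4c fell at least 42.7-fold to a dim level (adjusted p = 1.89e-11), the transferase Mgst1 fell by 1.35 log2 (adjusted p = 4.8e-08) and Hp fell by 1.09 (adjusted p = 2.14e-07). Against GFW arrays 7 fell and 3 rose, where 30.0% of genes tested fell and 32.3% rose (62.2% in all). Chil3 rose by 2.17 (adjusted p = 1.35e-06), F10 by 1.19 (adjusted p = 1.21e-07) and Ly6c2 by 0.99 (adjusted p = 1.3e-04, and 0.0646 against a 1.5-fold difference). Ccr1 fell by 2.18 (adjusted p = 4.88e-08), Mmp8 by 2.17 (adjusted p = 2.41e-07) and Ms4a4c at least 2.13-fold (adjusted p = 6.23e-06).

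Patrolling companions were divided on MDSC arrays. Against RB arrays 8 of 14 fell and 6 rose (20.7% and 27.4% of genes tested). Against GFW arrays 8 fell and 3 rose (30.0% and 32.3% of genes tested). Adgre4 fell to a dim level, at least 37.6-fold against RB (adjusted p = 3.43e-13) and at least 3.57-fold against GFW arrays (adjusted p = 1.05e-09). The integrin chain Itgal fell by 3.34 log2 (adjusted p = 6.34e-13) and 3.57 (adjusted p = 2e-13). Fabp4, at 11.48 ± 0.06 (SD, n = 3), rose by 3.75 log2 against RB (adjusted p = 1.95e-09) and at least 61.1-fold against GFW arrays, where it was dim (adjusted p = 8.84e-13). Cd9 rose by 3.62 (adjusted p = 2.31e-11) and 1.94 (adjusted p = 1.88e-08) and Cd36 by 1.66 (adjusted p = 1.01e-05) and 3.19 (adjusted p = 3.92e-09). Pou2f2 fell by 2.66 against RB (adjusted p = 5.48e-10) and Pglyrp1 fell by 1.41 against GFW arrays (adjusted p = 3.3e-07).

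All 10 monocyte regulators fell on MDSC against RB arrays, led by Nr4a2 (-3.58, adjusted p = 1.73e-11), Klf2 (-2.51, adjusted p = 5.11e-10) and Csf1r (-2.44, adjusted p = 2.32e-11), where 20.7% of genes tested fell. Against a 1.5-fold difference 4 of these calls were lost (Spi1, Klf4, Cebpa and Cebpb, each with an adjusted p of 1.0). Against GFW arrays 6 fell and 1 rose, where 30.0% of genes tested fell and 32.3% rose (62.2% in all). Klf2 (-3.96, adjusted p = 2.4e-12), Notch2 (-1.85, adjusted p = 1.05e-09) and Spi1 (-1.22, adjusted p = 1.69e-08) were lower and Klf4 (1.77, adjusted p = 5.84e-08) was higher. Of the CCR2 ligands, Ccl7 rose by 3.87 against RB (adjusted p = 4.62e-12) and 3.65 against GFW arrays (adjusted p = 6.49e-12), and Ccl12 rose from a dim level at least 3.95-fold (adjusted p = 8.1e-10) and 3.54-fold (adjusted p = 4.9e-10). Ccl2 rose by 1.76 against RB arrays (adjusted p = 1.13e-05) but stood at 11.39 on MDSC, 11.34 on GFW and 11.48 on GFK arrays (0.05 against GFW, adjusted p = 0.857).

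Of the 16 ligands and partners 4 rose and 8 fell on MDSC against RB arrays, and 4 rose and 6 fell against GFW arrays. Over all genes tested 27.4% rose and 20.7% fell in the first, and 32.3% and 30.0% in the second. Itga4 fell by 2.91 (adjusted p = 3.43e-12) and 2.21 (adjusted p = 5.28e-11), and Tgm2 differed by -1.70 (adjusted p = 1.92e-08) and -1.93 (adjusted p = 2.84e-09). Siglec1 fell by 2.58 against RB arrays (adjusted p = 1.74e-08). Selplg fell by 1.66 (adjusted p = 5.33e-10) and Itgb3 rose by 1.34 (adjusted p = 1.34e-06) against GFW arrays. Primary granule and progenitor genes summed to 9755 to 10622 on MDSC arrays, above the other groups, with 6 of 7 higher and 1 lower against RB, and 4 and 2 against GFW arrays. Neutrophil markers summed to 12464 to 13779. Their part in the members' differences was not tested.

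**Figure D3:**
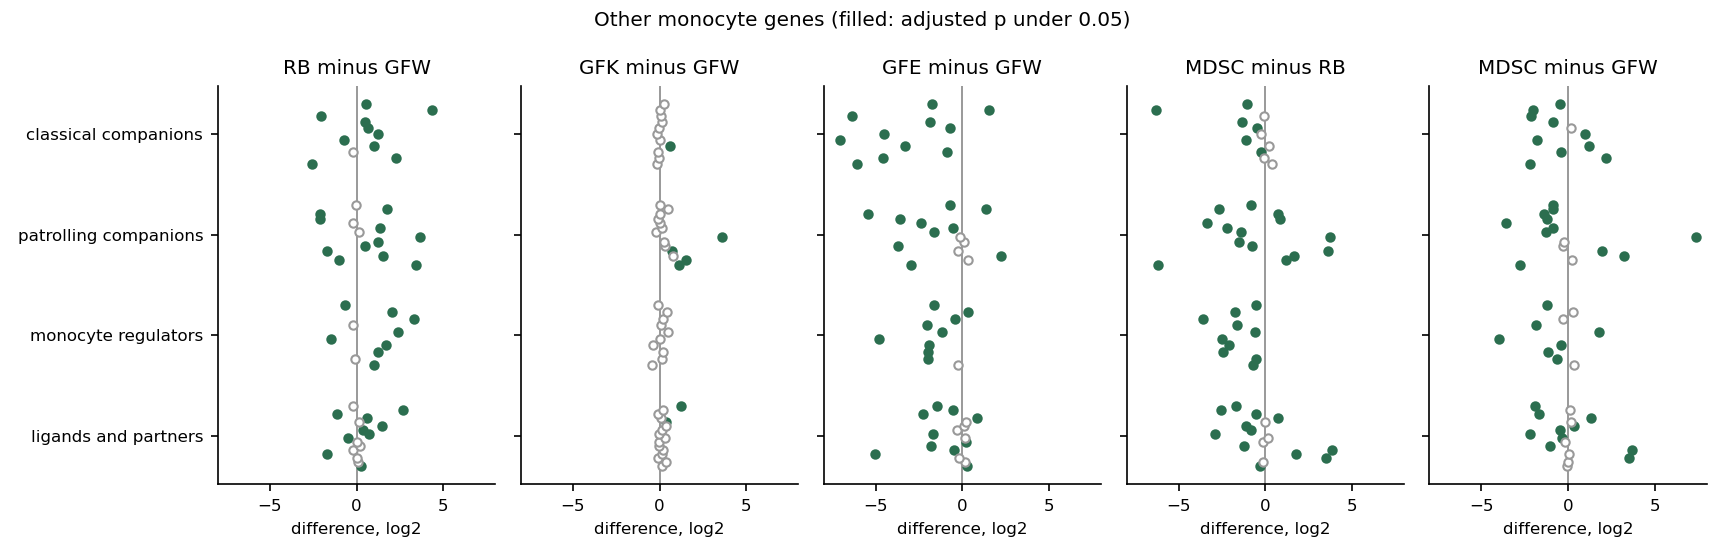
Difference in log2 signal (x axis) of each tested gene of 4 lists of other monocyte genes in 5 comparisons, with a point per gene. Filled points have an adjusted p under 0.05 in limma. Points lie on both sides of 0 for RB minus GFW, few are filled for GFK minus GFW, and all 10 regulators lie below 0 for MDSC minus RB.

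**Figure D4:**
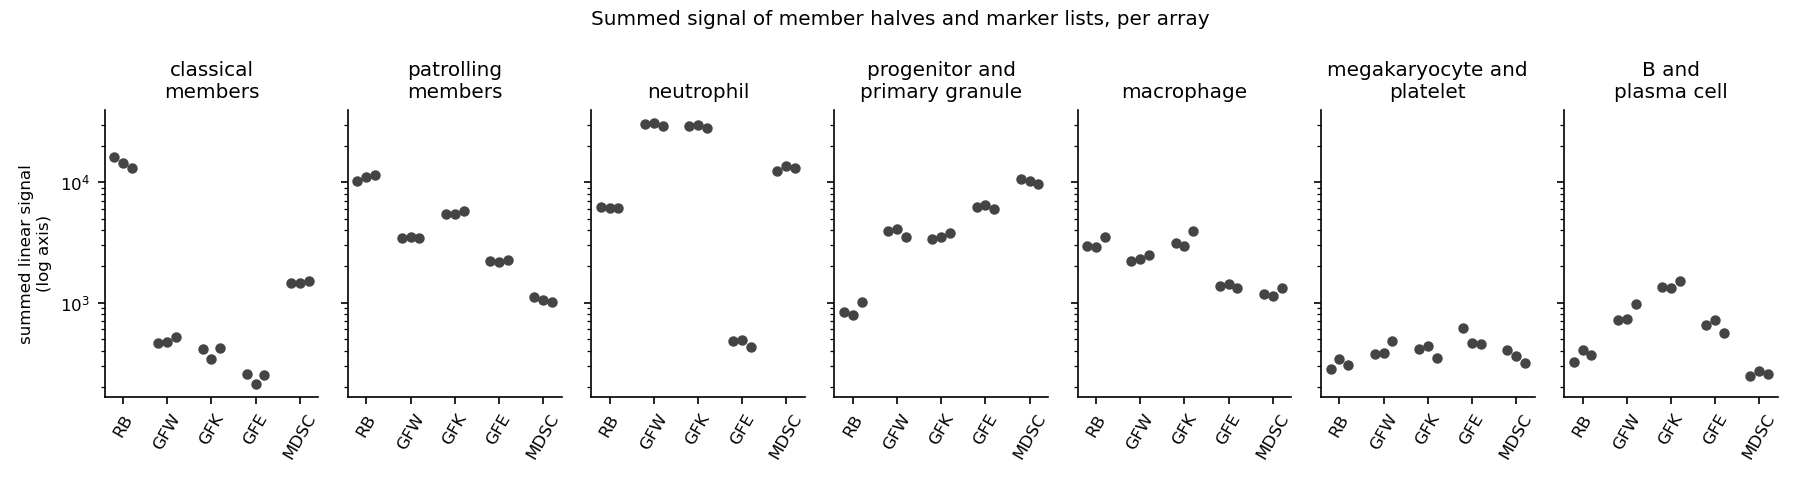
Summed linear signal (y axis, log scale) of the 5 classical and 5 patrolling genes and of 5 lists of markers, with a point per array. The classical sum was 13126 to 16313 on RB arrays and 464 to 516 on GFW arrays. The neutrophil and progenitor sums take the opposite order between those groups, and Kit makes up most of the progenitor sum on GFW arrays.

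The genes most like each member over the 15 arrays were found among all genes tested by Pearson r, which follows the differences between the 5 groups. F13a1 was most like Ms4a8a (r = 0.993), the endosomal adaptor gene Zfyve9 (0.992) and the sodium-calcium exchanger gene Slc8a1 (0.991). Thbs1 was most like the phospholipase gene Plcb1 (0.993), Ms4a4a (0.992) and F13a1 (0.991). Fn1 was most like Arhgap17 (0.987), Zfyve9 (0.982) and Serpinb8 (0.979). All of these were highest on the RB arrays.

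Vcan, which was shared by RB and MDSC arrays, was most like Scel (0.987), Lamp1 (0.981), which encodes a lysosomal membrane protein, and Nostrin (0.980). Scel stood at 6.31 on MDSC and 6.18 on RB arrays and at or below 4.05 in the other groups. Ccr2 was most like Dusp22 (0.981), Sulf2 (0.977) and Tifab (0.969).

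Ace was most like Nr4a2 (0.986), Pid1 (0.981) and the LIF receptor gene Lifr (0.980). Nr4a1 was most like the cyclin gene Ccnl1 (0.992), the ribonuclease gene Rnase6 (0.992) and the copper pump gene Atp7a (0.989). Treml4 was most like the bacterial sensor gene Nod1 (0.994), Rnf149 (0.992) and the metal transporter gene Slc11a1 (0.991). Nod1 stood at 9.88 on GFK, 9.65 on RB and 9.46 on GFW arrays, and at 7.47 on MDSC and 7.09 on GFE arrays.

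Spn was most like Bst2 (0.977), which encodes the virus-tethering protein tetherin, Lgals3bp (0.975) and Ino80 (0.972). Cx3cr1 was most like Pou2f2 (0.964), the tyrosine kinase gene Abl1 (0.960) and Ms4a6c (0.954). Ms4a6c stood at 11.22 on GFE and 11.12 on RB arrays, against 8.20 on GFK, 8.10 on GFW and 7.39 on MDSC arrays.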

How the data were processed

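RNA of 15 samples was measured on single-colour arrays with biotin-labelled cRNA from 6 ug of total RNA. The deposited values are log2 signals that the authors made with oligo and RMA (background correction, quantile normalisation across arrays, probe set summary), per the submitters' processing notes. Their versions and the annotation build were not given in the sources used here. Of 41345 probe sets, 23521 had a single gene symbol, 1814 had more than 1 and 16010 lacked one. For the 1082 genes with several probe sets the one with the highest mean was taken. Genes above the 40th percentile on at least 3 arrays were fitted in limma 3.58.1 (R 4.3.3, a mean per group, all 15 arrays, 10 residual degrees of freedom) with Benjamini-Hochberg adjustment over all 14822 genes, 2-sided, called under 0.05. The fit was tested on simulated data. Python 3.11.15, numpy 2.4.6, pandas 2.3.3 and matplotlib 3.10.9 were used.

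The members, lists, comparisons and alternatives were chosen with earlier results of these data known. Per list and comparison, up to 3 higher and 3 lower called genes were named, and per member the 3 genes most like it, leaving out predicted models and antigen receptor segments. Some listed genes were not analysed here, and Cd3e did not pass the filter. Array number limits the precision.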

Additional observations from a re-analysis of the deposited data

How the results depend on the processing

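Of the counts of genes called, those that moved by over 1.5 times did so under a test against a 1.5-fold difference or, for GFK minus GFW, with fewer arrays or the trend and robust fit. Against 1.5-fold, 1925 genes were called in RB minus GFW, 14 in GFK minus GFW, 4233 in GFE minus GFW, 2457 in MDSC minus RB and 3649 in MDSC minus GFW, instead of 7760, 239, 9931, 7130 and 9225. Classical companions called then numbered 6 in RB minus GFW, and in GFK minus GFW classical and patrolling companions numbered 0 and 2. With the 6 arrays compared alone, GFK minus GFW had 74 genes, 0 classical and 2 patrolling companions called, and the trend and robust fit called 2 classical companions. With single arrays left out, GFK minus GFW had between 133 (without GFK replicate 3) and 183 genes called, and 150 without GFW replicate 3.

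With each array set to its median, the classical median difference was 5.66 in RB minus GFW, -0.85 in GFE minus GFW and -0.02 in MDSC minus GFW, and the patrolling one -0.99 in GFE and -1.23 in MDSC minus GFW. That scaling takes the same amount from every gene of a comparison, so in MDSC minus GFW small differences turned together: Thbs1 and Fn1 from 0.24 to -0.02 and F13a1 from 0.07 to -0.20. Adam10 in GFE minus GFW turned to -0.07 and Cd47 to -0.09. With single arrays left out, the classical median ran from 5.61 to 5.96 in RB minus GFW, from -0.08 to 0.16 in GFK minus GFW, from -0.68 to -0.49 in GFE minus GFW, from -5.71 to -5.36 in MDSC minus RB and from 0.09 to 0.37 in MDSC minus GFW. The patrolling median ran from 1.73 to 1.95 in RB minus GFW, from 0.67 to 0.73 in GFK minus GFW, from -0.74 to -0.57 in GFE minus GFW, from -4.04 to -3.86 in MDSC minus RB and from -1.10 to -0.77 in MDSC minus GFW.

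No pairing by title number was seen in the residuals. Of 30 same-numbered pairs of arrays from different groups, 0 had residuals that correlated above 0.1 (lowest -0.129, highest 0.0966). With 3 arrays a group, this cannot show that same-numbered arrays were unrelated. With the number as a replicate block, 7634 genes were called in RB minus GFW, 202 in GFK minus GFW, 9907 in GFE minus GFW, 7044 in MDSC minus RB and 9116 in MDSC minus GFW. Each member had 1 probe set, so the mean over probe sets left its values as they were. No file gives a signal over background per probe, so dim signal was judged by rank alone.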

Other observations

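Of the RB arrays, replicate 3 was the lowest for 4 of 5 classical members and the highest for 4 of 5 patrolling members, against 42.0% and 30.3% of all genes tested. Its median distance from the mean of the other RB arrays was -0.2 log2 for classical and 0.22 for patrolling members. The distances ran from -1.56 (Vcan) to 0.04 for classical and from -0.41 to 0.46 (Cx3cr1) for patrolling members. Some ranks rest on small gaps, as for Fn1 (12.28, 12.25 and 12.21). Among 10 monocyte regulators it was highest for 8 and lowest for 1, and among 11 classical companions lowest for 5 and highest for 3. Among 14 patrolling companions it was lowest for 6 and highest for 6, so the members' pattern was not seen in either companion list. These counts were taken after the values were seen and carry no test.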
